A study of Mus musculus with 6 samples.

Results

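The semaphorin, ephrin, Slit and netrin families are the classical ligands of axon guidance, and plexins, neuropilins, Eph receptors, Robo receptors, Unc5 receptors and Dcc receive them. Their expression is described here in outer hair cells sorted from mouse cochleae at E18.5, shortly before birth. Members were chosen by gene symbol, with earlier results of these data known. The rule took every semaphorin, plexin, neuropilin, Slit, Robo, netrin, netrin-G, Unc5, ephrin and EphB gene in the count files, and Dcc. The rule found 62 of 23337 symbols, of which 37 are ligands and 25 are receptors. EphA receptors were outside the rule and are given with the partner genes. Outer hair cells are the electromotile sensory cells of the cochlea, and those studied were sorted for an Insm1-GFP-Cre signal. There were 3 libraries from Insm1-Het and 3 from Insm1-KO mice, with no treatment named. Insm1 encodes a zinc-finger transcription factor of nascent outer hair cells, and the study compared these cells with and without it. The controls were heterozygous, not wild type, and cells of both genotypes were collected through the same Insm1-GFP-Cre signal, so cells without that signal were not measured. Strain was not given. Nothing in the labels says that libraries came from separate animals; the p-values therefore reflect no more than the variation among these 6 samples, part or all of which may be technical.

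Guidance ligands repel or attract growth cones and cell borders, and include both membrane-bound and secreted proteins. Semaphorins signal through plexins, with neuropilins as co-receptors for most secreted class 3 members. Slits signal through Robo receptors, netrins through Dcc and Unc5 receptors, and ephrins through Eph receptors, with signalling also running back into the ephrin-bearing cell. In the cochlea such cues are known from the paths of spiral ganglion axons, which sort between inner and outer hair cells: Sema3F with neuropilin-2 and ephrin-A5 with EphA4 have both been linked to this sorting.

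The 250 bases upstream of the annotated start are printed for 4 members whose values the results turn on: Efna5 and Unc5b, the highest per kilobase of exon, and Robo2 and Efnb2, whose genotypes did not overlap. They come from the RefSeq promoter table of GRCm38.p6 and are written 5′ to 3′ on the gene's own strand. That source held no window for Sema3f, whose genotypes, like those of Unc5b, did not overlap either. Each window ends at the base before the GENCODE start. Capitals mark the E-box CAGCTG in Robo2 and the sequence TGTCAGGGG, the core of the published INSM1 motif, in Efnb2.
Efna5 upstream window, chr17:62881318-62881567, minus strand: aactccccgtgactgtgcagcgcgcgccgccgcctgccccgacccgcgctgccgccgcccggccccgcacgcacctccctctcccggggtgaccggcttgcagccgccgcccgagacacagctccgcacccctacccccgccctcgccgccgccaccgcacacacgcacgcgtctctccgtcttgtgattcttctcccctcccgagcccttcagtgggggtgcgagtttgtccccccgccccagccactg
Unc5b upstream window, chr10:60831582-60831831, minus strand: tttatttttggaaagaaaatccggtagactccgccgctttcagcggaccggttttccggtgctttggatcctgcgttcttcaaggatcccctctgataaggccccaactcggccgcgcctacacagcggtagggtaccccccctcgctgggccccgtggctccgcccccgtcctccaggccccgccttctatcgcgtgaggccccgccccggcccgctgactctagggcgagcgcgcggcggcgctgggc
Robo2 upstream window, chr16:74411826-74412075, minus strand: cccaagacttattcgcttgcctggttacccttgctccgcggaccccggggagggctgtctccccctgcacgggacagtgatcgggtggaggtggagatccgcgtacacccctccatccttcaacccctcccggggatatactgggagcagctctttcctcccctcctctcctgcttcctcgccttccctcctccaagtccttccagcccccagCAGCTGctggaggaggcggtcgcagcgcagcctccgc
Efnb2 upstream window, chr8:8661243-8661492, minus strand: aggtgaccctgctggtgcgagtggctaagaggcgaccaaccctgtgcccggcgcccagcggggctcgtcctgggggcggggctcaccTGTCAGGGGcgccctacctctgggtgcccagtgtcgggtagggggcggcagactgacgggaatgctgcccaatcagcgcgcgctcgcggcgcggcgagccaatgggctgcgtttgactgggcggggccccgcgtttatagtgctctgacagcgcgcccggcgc

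These windows were rich in G and C, at 74.8% in Efna5, 66.8% in Unc5b, 65.6% in Robo2 and 72.0% in Efnb2. The RefSeq table held 67 windows for 52 of the 62 members, with a median GC content of 64.4%, against 52.4% over all 32851 windows. The E-box CAGCTG, the form bound by many basic helix-loop-helix factors, lay in 10 member windows (14.9%) and in 13.0% of all windows. The other E-box searched, CAGATG, lay in 4 member windows (5.97%) and in 14.4% of all. Both strands were searched, and matches of different motifs were allowed to overlap. Efnb2 held the only copy of TGTCAGGGG among the member windows (1.49%), against 0.289% of all windows. The longer INSM1 consensus was in no member window and in 0.131% of all. A match shows only that the letters are present.

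Library depth was 10721902 to 12427039 counts in Het and 7705177 to 9748629 in KO libraries. KO replicate 3 stood apart, with a mean correlation of log2 expression with the other libraries of 0.761, against 0.792 to 0.825 for the rest. Insm1 itself was at 109.3, 116.2 and 69.2 CPM, meaning counts scaled to a common library total, in Het and 78.7, 60.3 and 18.7 CPM in KO libraries. Its transcript was thus counted in every KO library, and the deleted stretch of the gene is not given in the labels. Markers of the labelled cell type were present: the hair cell genes, among them Myo7a and Pou4f3, summed to 7385 to 8436 CPM over the libraries. The outer hair cell genes summed to 556.5 to 709.6 CPM, most of it Fam40b, Chrna10 and Bcl11b. Slc26a5 (prestin) was at 17.6 to 52.7 CPM and Ikzf2 at 5.99 to 73.8 CPM over the libraries. Ocm was at 0 in Het and at 3.67 CPM or less in KO libraries. Markers of other cells were also counted, and the 9 supporting cell genes summed to 1316, 1457 and 1598 CPM in Het and 1607, 1733 and 2254 CPM in KO libraries. The sums of greater epithelial ridge genes (1077 to 2257 CPM) and of spiral ganglion neuron genes (853.9 to 1517 CPM) overlapped between genotypes. The ridge sum was nearly all Tecta and Tectb. Otoa, Fabp7 and Crabp1 were at 5.81 CPM or less in every library, and Epyc was at 94.0 CPM in Het replicate 3 and 7.33 CPM or less elsewhere. The inner hair cell list of 4 genes separated the genotypes most, at 1.14, 0.0936 and 7.75 CPM in Het and 92.0, 107.2 and 431.2 CPM in KO libraries. Most of that sum was Brip1, at 76.8, 88.0 and 421.5 CPM in KO libraries. Tbx2 was at 0.163, 0.0936 and 0.632 CPM in Het and 4.06, 19.2 and 5.01 CPM in KO libraries. Fgf8 was at 0 in Het and at 9.29, 0 and 4.67 CPM in KO libraries. Slc17a8, which loads glutamate into synaptic vesicles, was at 1.92 CPM or less in every library. The glial genes summed to 112.1 to 173.2 CPM, mostly Cnp, and the immune genes to 37.6 to 136 CPM, nearly all Laptm5. Within these lists Foxd3 and Csf1r were at 0 in every library and Ptprc and C1qa at 1.14 CPM or less. Of the neuronal genes, Nefm (473.2 to 979.8 CPM), Nefl and Snap25 made up most of the sum, and Tubb3 was at 3.39 CPM or less.

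Outer hair cells of both genotypes carried a broad but uneven set of guidance genes. Of the 62 members, 60 had counts in at least 1 library, 49 passed the filter on low counts and 27 averaged above 20 CPM. Ntn5 and Robo3 had no counts in any library, which allows up to 0.0487 CPM over the 6 libraries together. Levels of different genes were compared as CPM per kilobase of exon, so that long genes do not rank high by length alone. On that scale, given as mean ± SD over the 6 libraries, the order was led by a ligand, Efna5 at 174.2 ± 55.8, and a receptor, Unc5b at 136.1 ± 27.2. Sema5b at 96.0 ± 17.8 and Ntng2 at 71.0 ± 15.1 came next, then Plxnb2 at 45.5 ± 6.4 and Plxna1 at 45.5 ± 4.4. The ranges of Efna5 and Unc5b over libraries overlapped, so their order was not resolved, and Plxnb2 and Plxna1 did not differ beyond their spread. The same 6 genes led when length was taken from the longest transcript, but with Sema5b at 146.3, Unc5b at 145.1 and Ntng2 at 144.7 CPM per kilobase, so the order of these 3 depends on the length used.

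**Figure D1:**
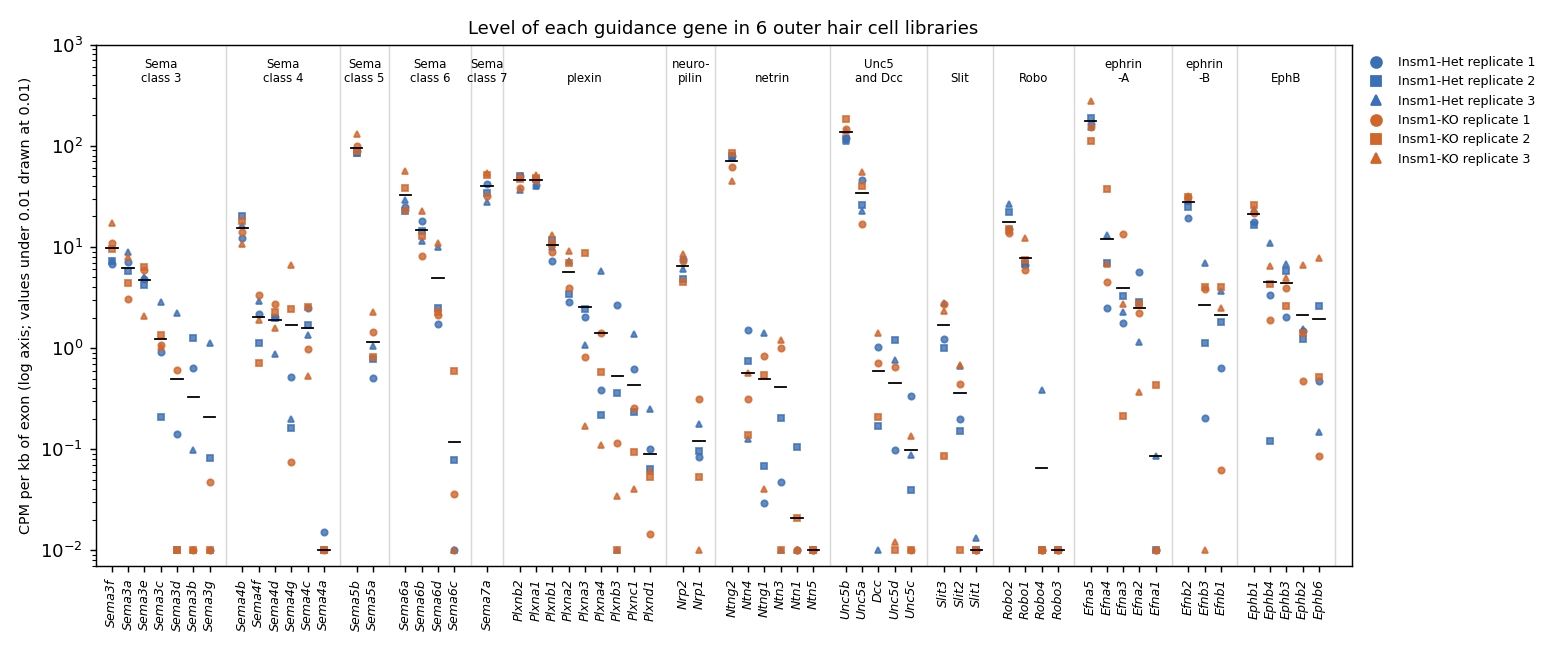
Level of each of the 62 members in CPM per kilobase of exon (log axis), with 1 point per library coloured by genotype, a bar at the mean of the 6 libraries and families in blocks; values at or near 0 are drawn at the foot of the axis. Efna5, Unc5b, Sema5b and Ntng2 sit at the top of their families, while Slits and the netrins other than Ntng2 lie far lower.

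The semaphorins were led by membrane-anchored classes. Sema5b, a transmembrane class 5 semaphorin with thrombospondin repeats, was far above its relative Sema5a at 1.14 CPM per kilobase. Sema7a, which is held in the membrane by a lipid anchor, was at 40.1 ± 10.7, and Sema6a, a transmembrane ligand of class A plexins, at 32.3 ± 12.9 CPM per kilobase. Sema4b at 15.3 and Sema6b at 14.6 CPM per kilobase followed. The secreted class 3 members were lower, with Sema3f at 9.87, Sema3a at 6.17 and Sema3e at 4.74 CPM per kilobase. Sema4a had 1 read in 1 library.

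Among the semaphorin receptors, plexins of classes A and B dominated. Plxnb2, a receptor of class 4 semaphorins, and Plxna1, a signalling partner of the neuropilins, were followed by Plxnb1 at 10.4 and Plxna2 at 5.60 CPM per kilobase. The neuropilins were unequal: Nrp2, the co-receptor of Sema3F, was at 6.47, and Nrp1, the co-receptor of Sema3A, at 0.121 CPM per kilobase. Nrp1 did not pass the filter, at 3.10 CPM or less in every library. Plxnc1, the receptor of Sema7A, was at 0.434 CPM per kilobase although its ligand was among the highest semaphorins.

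Among the netrins, the netrin-G family member Ntng2 stood alone. Netrin-G2 is a lipid-anchored adhesion protein that does not bind Dcc or Unc5 receptors. The ligand Ntn4 was at 0.566 and Ntn1 at 0.0209 CPM per kilobase. Of the 5 netrin receptors among the members 2 were well above these levels, Unc5b and, after it, Unc5a at 34.4 CPM per kilobase. The others were as low as these netrins, with Dcc at 0.587, Unc5d at 0.452 and Unc5c at 0.0993 CPM per kilobase. Neo1, a netrin receptor outside the rule, was at 46.3 CPM per kilobase. Of the 4 Robo genes 2 were above the Slits. Robo2 was at 17.8 ± 5.3 and Robo1 at 7.69 CPM per kilobase, against 1.70 for Slit3, 0.357 for Slit2 and 1 read of Slit1 in all.

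In the ephrin system both sides were present. Efna5 was the only ephrin-A gene above 20 CPM, and Efna4 followed at 11.9 and Efna3 at 3.95 CPM per kilobase. Efna4 spanned 3.99 to 60 CPM over libraries, highest in KO replicate 2, and Efna3 spanned 0.522 to 32.8 CPM, highest in KO replicate 1. Efnb2, a transmembrane ephrin, was at 27.7 ± 4.8, far above Efnb3 at 2.69 and Efnb1 at 2.12 CPM per kilobase. Ephb1 led the EphB receptors at 21.4 ± 3.7, ahead of Ephb4 at 4.50 and Ephb3 at 4.35 CPM per kilobase. Ephb4 spanned 0.562 to 50.6 CPM over libraries, so its order with Ephb3 was not resolved.

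The loss of Insm1 was then compared over all 11714 genes that passed the filter, with edgeR's quasi-likelihood test and Benjamini-Hochberg adjustment, which called 0 genes (0%) at an adjusted p under 0.05. None of the 49 tested members was called either, and their lowest adjusted p was 0.92. Before adjustment, 2 members (4.08%) were higher in KO at a p under 0.05, Unc5b and Sema4g, against 3.19% of all genes. One, Robo2 (2.04%), was lower, against 2.15% of all genes, so both shares lay near the background. The 3 KO values all lay above the 3 Het values for 3 members (6.12%), Unc5b, Efnb2 and Sema3f, against 5.08% of all genes. They all lay below for Robo2 alone (2.04%), against 6.1% of all genes. The members' median log2 fold change (KO minus Het) was 0.13, against 0.02 over all genes tested. It was 0.36 without Het replicate 3 and -0.05 without KO replicate 3.

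Unc5b encodes a netrin receptor with an intracellular death domain (GRCm38 chromosome 10, 60762593 to 60831581, minus strand). It was at 753.5, 724.7 and 695.6 CPM in Het and 918.3, 1152 and 867.0 CPM in KO libraries. Every KO library lay above every Het library, and KO replicate 2 was the highest. The means were 724.6 ± 29.0 and 979.1 ± 151.8 CPM (SD, n = 3), and KO exceeded Het by a log2 fold change of 0.43 (SE 0.18; 95% interval 0.04 to 0.83). It did not pass edgeR's test over all genes (adjusted p = 0.92). The supporting cell marker sum, with 9 of 9 markers tested and 0 called, was also higher in every KO library, by a margin of 1607 to 1598 CPM between the nearest pair. Within that list only S100a1 and Lfng were higher in every KO library, and the other genes overlapped between genotypes. Sox2, for example, was at 143.7, 163.2 and 167.4 CPM in Het and 111.6, 125.1 and 200 CPM in KO libraries. The inner hair cell sum was higher in every KO library too, at 92.0 CPM or more against 7.75 CPM or less, and in KO libraries most of it was Brip1. The part of either sum in the differences of Unc5b, Efnb2 and Sema3f was not tested. In bulk samples, fewer cells of a type and less RNA per cell cannot be told apart.

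Efnb2 (chromosome 8, 8617434 to 8661242, minus strand) was at 132.8, 171.4 and 194.6 CPM in Het libraries. The KO libraries were close together at 211.7, 211.3 and 218.3 CPM. KO against Het gave a log2 fold change of 0.36 (SE 0.26; 95% interval -0.21 to 0.93; edgeR adjusted p = 0.959), and 0.22 without Het replicate 1, the lowest library. Sema3f, the secreted ligand of neuropilin-2 (chromosome 9, 107681500 to 107710475, minus strand), was at 35.5, 37.7 and 37.5 CPM in Het and 57.4, 49.2 and 90.5 CPM in KO libraries. The Het libraries nearly coincided, while KO replicate 3 was far above the other two. The log2 fold change was 0.83 (SE 0.46; 95% interval -0.16 to 1.82; edgeR adjusted p = 0.938), and 0.54 without KO replicate 3. Its co-receptor Nrp2 spanned 53.5 to 100.9 CPM with the genotypes overlapping.

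Robo2, a Slit receptor (chromosome 16, 73891839 to 74411825, minus strand), was the 1 tested member lower in every KO library than in any Het library. It was at 255.5, 374.0 and 453.0 CPM in Het and 233.4, 252.8 and 243.4 CPM in KO libraries. Het replicate 1 lay just above the KO values, and Het replicate 3 set the upper end. The log2 fold change was -0.57 (SE 0.25; 95% interval -1.11 to -0.03), which did not pass edgeR's test over all genes (adjusted p = 0.92). It was -0.36 without Het replicate 3. Robo1 was at 97.6 to 201.5 CPM, highest in KO replicate 3, with the genotypes overlapping.

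Sema4g, a transmembrane class 4 semaphorin (chromosome 19, 44989101 to 45003397, plus strand), had the largest fitted fold of the 10 tested members given with one, at low levels. It was at 4.48, 1.40 and 1.74 CPM in Het and 0.641, 21 and 57.9 CPM in KO libraries. KO replicate 1 was the lowest of all 6 and KO replicates 2 and 3 the highest, so the genotypes overlapped. Its fitted log2 fold change was 3.38 (SE 1.26; 95% interval 0.67 to 6.08; edgeR adjusted p = 0.92). It was 2.09 without KO replicate 3, the highest library, and 1.94 with limma-voom.

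**Figure D2:**
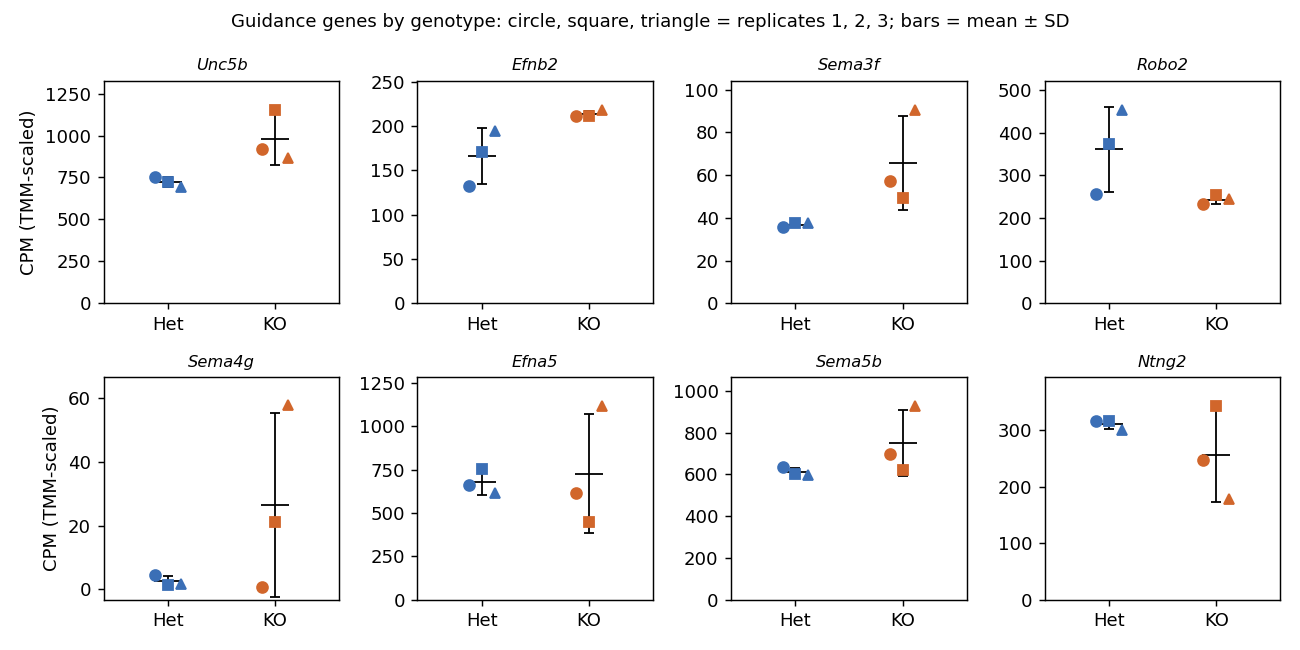
CPM of 8 members in each library, with a point per library and the mean ± SD of each genotype (n = 3), each panel on its own axis, which reaches below 0 only where the error bar of Sema4g does. Unc5b, Efnb2 and Sema3f separate upward and Robo2 downward in KO, while in Efna5 and Sema5b KO replicate 3 lies above all other libraries.

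The remaining members with the highest levels overlapped between genotypes. Efna5, the ephrin of the highest level (chromosome 17, 62604184 to 62881317, minus strand), was at 664.3, 753.6 and 612.7 CPM in Het and 618.2, 450.4 and 1115 CPM in KO libraries. KO libraries were both the lowest and the highest. The log2 fold change was 0.11 (95% interval -0.50 to 0.71; edgeR adjusted p = 0.996), and it was -0.33 without KO replicate 3 and 0.37 without KO replicate 2. Sema5b (chromosome 16, 35541145 to 35664732, plus strand) was at 635.5, 601.1 and 595.4 CPM in Het and 699.1, 621.6 and 925.0 CPM in KO libraries. Its log2 fold change was 0.29 (95% interval -0.14 to 0.73; edgeR adjusted p = 0.952), and 0.12 without KO replicate 3. Ntng2 (chromosome 2, 29194541 to 29253005, minus strand) was at 315.4, 315.9 and 300.6 CPM in Het and 246.4, 342.0 and 178.7 CPM in KO libraries. Here KO replicate 3 was the lowest library rather than the highest. The log2 fold change was -0.28 (95% interval -0.85 to 0.29; edgeR adjusted p = 0.979), and it was -0.07 without KO replicate 3 and -0.54 without KO replicate 2. Ntng2 shares 14.0% of its exon bases with another gene on the same strand, so its counts are uncertain to that extent.

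The 2 leading plexins varied little. Plxna1 (chromosome 6, 89316314 to 89362620, minus strand) was at 370.9, 423.1 and 359.7 CPM in Het and 417.7, 433.4 and 465.4 CPM in KO libraries. Its log2 fold change was 0.19 (95% interval -0.25 to 0.63; edgeR adjusted p = 0.983). An antisense gene overlaps 10.7% of its exon bases, and the strand setting of the counting was not given. Plxnb2 (chromosome 15, 89155549 to 89180788, minus strand) averaged 353.7 ± 61.2 and 348.6 ± 49.2 CPM (SD, n = 3), a log2 fold change of -0.02 (95% interval -0.52 to 0.48; edgeR adjusted p = 0.996). These intervals reach differences of about the size seen in Unc5b, so they do not show equal levels.

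**Figure D3:**
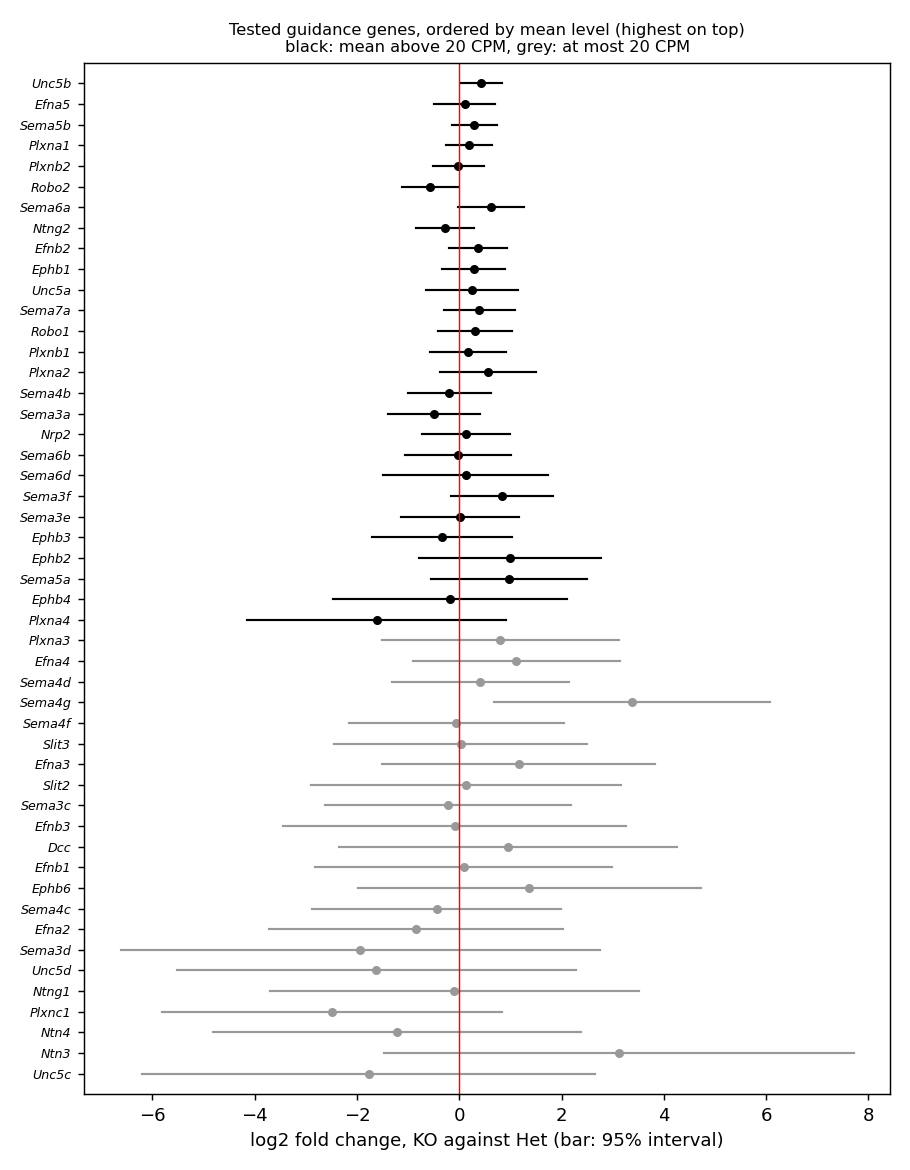
Log2 fold change (KO minus Het) of the 49 tested members with 95% intervals from edgeR, ordered by mean level with the highest on top, and members above 20 CPM in black. Of the 27 members above 20 CPM, 26 lie within 1 of 0 on the log2 scale, and intervals of the lower members are much wider.

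Precision followed level. The 27 members above 20 CPM had a median interval width of 1.62 on the log2 scale, against 5.94 for the 22 lower ones. Of the former, 18 were above and 9 below 0, with a median log2 fold change of 0.18. The latter split 11 to 11, with a median of -0.01. Differences between libraries were large at low levels: the highest library was more than 10 times the lowest in 19 of the 22 (86.4%), against 65.6% of all tested genes at most at 20 CPM. Above 20 CPM this held for 3 of 27 (11.1%), against 6.41% of all genes.

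Single libraries carried some of the members. Plxna4, a class A plexin, was at 82.2 CPM in Het replicate 3 and at 1.56 to 19.9 CPM in the others. Ephb2 was at 83.7 CPM in KO replicate 3 against 5.98 to 19.7 CPM elsewhere, and Plxna3 at 68.4 CPM in KO replicate 2 against 1.33 to 19.2 CPM. Sema6d, a transmembrane ligand of Plxna1, was high in 1 library of each genotype, at 104.6 CPM in Het replicate 3 and 116.2 CPM in KO replicate 3, against 18.3 to 26.0 CPM in the rest. Plxna4, Plxna3, Ephb2 and Sema6d were chosen for this after their values were seen.

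KO replicate 3 was the highest library for many members. Among the 27 members above 20 CPM it was highest for 17 (63%), against 29.1% of the 7205 genes tested above that level. Over all 49 tested members it was highest for 22 (44.9%), against 24.5% of all genes. Sema6a, for example, was at 217.9, 200.0 and 253.2 CPM in Het and 203.8, 333.9 and 491.4 CPM in KO libraries. Summed over the 62 members, the libraries held 5061, 5194 and 5401 CPM in Het and 5069, 5737 and 6933 CPM in KO. The excess of KO replicate 3 lay more in ligands, at 3791 CPM against 2548 to 2703 CPM in the others, than in receptors, at 3142 against 2513 to 3082 CPM. It was uneven among ligands. In that library Efna5 was at 1115 and Sema5b at 925 CPM, each above all others, while Ntng2 was lowest, at 178.7 CPM. The same library had the highest supporting cell marker sum, 2254 CPM, the lowest Insm1 level and the lowest correlation with the others. It also had the highest inner hair cell marker sum, 431.2 CPM against 107.2 CPM or less elsewhere, of which Brip1 was 421.5 CPM. The part of these traits of KO replicate 3 in the members' levels was not tested.

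**Figure D4:**
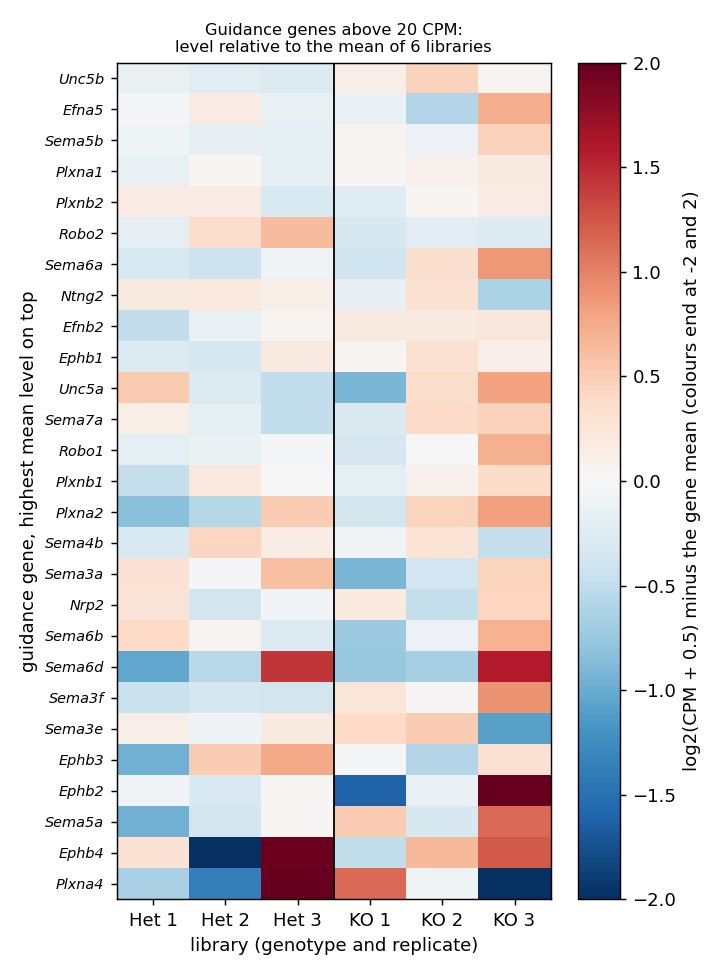
Deviation of each of the 27 members above 20 CPM from its mean log2 level, by library (columns), with colours ending at ±2 on the log2 scale. The column of KO replicate 3 holds the highest value for 17 of the 27 members.

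The other genes of these pathways gave the same picture of no calls. Of 67 listed co-receptors, EphA receptors and intracellular effectors, 65 were in the files and 54 were tested, with 0 called and a median log2 fold change of 0.04. Epha4, the receptor of ephrin-A5 and other ephrins, was the highest EphA gene at 50.7 CPM per kilobase, with 443.2 ± 75.7 CPM in Het and 372.6 ± 127 CPM in KO (SD, n = 3). Among co-receptors the highest per length were Gpc1, Nrcam and Neo1, which encode a glypican, an adhesion molecule and the netrin and RGM receptor neogenin. Dpysl2, Gsk3b and Srgap1 led the effectors. Flrt2, a ligand of Unc5 receptors, was at 34.0, 48.8 and 55.2 CPM in Het and 90.2, 58.3 and 146.6 CPM in KO libraries. Every KO value lay above every Het value, with a log2 fold change of 1.10 (SE 0.44; 95% interval 0.15 to 2.05; edgeR adjusted p = 0.92). Flrt2 was the only 1 of the 54 with this pattern, against 5.08% of all genes. Lower in every KO library were 3 of the 54, Dscam, Epha5 and Fes, against 6.1% of all genes. Dscam was at 3.24 CPM or less in every library. Fes was at 3.58, 1.59 and 19.8 CPM in Het and at 0.32 CPM or less in KO libraries. Epha5 was at 29.6, 2.25 and 13.4 CPM in Het and at 0 in KO libraries. It was not called by edgeR with the filter (adjusted p = 0.718), but it was called by DESeq2 (adjusted p = 0.000289) and by edgeR without the filter (adjusted p = 0.0045).

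The 13 members below the filter averaged at most 3.42 CPM. Sema3b, a secreted class 3 semaphorin, was at 3.01, 5.99 and 0.474 CPM in Het libraries, 107 counts in all, and had no counts in KO. That is at least 27.4-fold lower, taking 3 counts over the KO group as the floor. Robo4, the endothelial Robo gene, had 26 counts, all in Het replicate 3, at least 5.94-fold lower in KO from 1 library. The pair was picked with their values already seen, neither was tested with the filter, and floors cover counting error only.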

How the data were processed

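For each of the 6 libraries the authors deposited raw counts by gene symbol, made with Trimmomatic, STAR and HTSeq on GRCm38 (mm10), per the submitters' processing notes. Their versions, annotation and strand setting: not given in the sources used here. Per the labels' protocols, ribosomal RNA was removed and cDNA was amplified from random hexamers, so reads are not independent molecules.

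Members and gene lists were chosen with earlier results of these data known. Named were the 3 members of each family highest per length, members without overlap of genotypes or at an unadjusted p under 0.05, and further members marked where they appear. Genes were filtered by filterByExpr (minimum count 10, minimum total 15; removed genes held 0.274% of counts), scaled by TMM and tested with edgeR 4.0.16 (quasi-likelihood F test, genotype only, R 4.3.3), which was tested on simulated data. The simulated data had a single level of spread for all genes and large changes only, in genes above 20 CPM. They do not show how well smaller changes or changes in more variable genes are found. Standard errors are the log2 fold change divided by the square root of F. CPM use TMM-scaled totals. Lengths and positions came from GENCODE M21. Alternatives were DESeq2 1.42.0, limma-voom (limma 3.58.1), other fits, scalings, filters and lengths, the replicate block and leaving out each library.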

Additional observations from a re-analysis of the deposited data

How the results depend on the processing

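The guidance members called stayed at 0 under all 15 alternatives. Over all genes, where edgeR called 0, DESeq2 called 26, no filter 67, the newer quasi-likelihood fit 1 and the replicate block 1. Of the partner and effector genes, 1 was called by DESeq2 and 1 without the filter, Epha5 in both. The members at an unadjusted p under 0.05, 3 in all, were 1 with limma-voom, 0 with the replicate block and 0 to 6 when 1 library was left out. Same-numbered libraries did not deviate together (correlations of 0.0101, 0.0073 and 0.0144), so the numbers were not taken as pairs. The members without overlap of the genotypes, 4 in all, were 6 to 13 with 1 library left out, where fewer samples make non-overlap easier. Their median log2 fold change, 0.13, ranged from -0.046 without KO replicate 3 to 0.36 without Het replicate 3. With 1 library left out, Plxnb2 ranged from -0.149 to 0.084 and Efna5 from -0.332 to 0.371 on the log2 scale. Plxnb2 was positive without Het replicate 1 (0.051), without Het replicate 2 (0.054) and without KO replicate 1 (0.084). Alternatives were run for 10 members' fold changes, and the other 8 kept their direction in each alternative that gave a value; Sema4g had none with the filter at 5 CPM. By longest transcript, Ntng2 was at 144.7, Sema5b at 146.3, Unc5b at 145.1 and Plxnb2 at 54.0 CPM per kilobase. The causes of these changes were not tested. The 22 members at or under 20 CPM had a median interval width of 5.94 on the log2 scale. Their highest library was at a median of 57 times the lowest, against 20.9 for all tested genes at that level.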
